A study of Homo sapiens with 6 samples.

Results

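Of the 10 BCL2 family genes examined in KHOS and U-2OS osteosarcoma cells, BMF had the largest difference with CDK11 siRNA in KHOS, with a log2 signal of 6.90 against 4.53 with nonspecific siRNA. In U-2OS its signal was 3.78 against 3.18, both below the limit set here for a measurable signal. The members were BCL2, BCL2L1, MCL1, BAX, BAK1, BID, BCL2L11, BMF, PMAIP1 and BBC3, and every probe set that the platform annotation assigns to one of them was taken, which gave 31 of the 54675 probe sets. BMF was named in the choice of members after its high value in KHOS had been seen, so that its differences with CDK11 siRNA are a description and carry no weight as a test.

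The BCL2 family decides whether the outer membrane of the mitochondrion is opened in apoptosis. Pro-survival proteins (BCL2, BCL-XL from BCL2L1, and MCL1) bind and hold the pore-forming effectors BAX and BAK (from BAK1). BH3-only proteins, among them BID, BIM (from BCL2L11), BMF, NOXA (from PMAIP1) and PUMA (from BBC3), bind the pro-survival proteins or act on the effectors directly, each being called on by different signals. Several family members are regulated mainly by protein turnover, cleavage or localization, which an array of RNA does not measure.

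The groups were KHOS and U-2OS cells, both human osteosarcoma cell lines, given CDK11 siRNA at 40 nM, given nonspecific siRNA at 40 nM, or left untransfected. RNA was taken 48 h after transfection per the methods. RNA of 3 flasks was pooled for each Affymetrix U133 Plus 2.0 array. With 1 array for a condition of a line, there is no replicate error within a line. All values are log2 signals normalized with gcrma, and a probe set is called above the signal limit here when at least 1 of the 6 arrays exceeded 6.64, a linear signal of 100. Each line is a single model of the tumor, and fewer cells expressing a gene and less RNA per cell cannot be told apart.

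The targeted gene checked the labels. All 5 probe sets shared by CDK11A and CDK11B had a lower signal under CDK11 siRNA in each line, and the brightest kept 20.6% of its nonspecific siRNA signal in KHOS and 16.0% in U-2OS. Between 24.8% and 25.9% of all probe sets lay above the signal limit on an array. Of 6 osteoblast and mesenchymal markers, VIM, SPARC, COL1A1 and RUNX2 were above the limit and COL1A2 and ALPL were not. Of 5 epithelial markers, EPCAM, KRT8 and KRT18 were above it, none of them beyond 3 SD in any contrast. EPCAM passed through the KHOS arrays alone, and its U-2OS levels lay between 5.15 and 5.89. CDH1 and KRT19 were below the limit, and no blood marker was above it. RUNX2 had 5.68 with CDK11 siRNA, 4.39 with nonspecific siRNA and 7.03 untransfected in U-2OS. It was beyond 3 SD on the high side against nonspecific siRNA, and on the low side for each siRNA against untransfected cells. Its U-2OS levels with CDK11 siRNA and with nonspecific siRNA lie below the signal limit. VIM was beyond 3 SD on the high side between CDK11 and nonspecific siRNA in U-2OS, though not by its brightest probe set, and the part of both in the results below was not tested.

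A total of 18 of the 31 probe sets, from 8 of the 10 genes, were above the signal limit. BCL2, the founding pro-survival member, had 4 probe sets with levels between 2.31 and 4.63, all below the limit. The single BBC3 probe set is also assigned to 2 microRNA genes and lay between 2.68 and 3.63, so that it cannot be read as BBC3 alone and was left out of the counts. A gene was counted as beyond 3 SD when any of its probe sets above the limit had a log2 difference further than 3 SD from the mean difference of its line, the z-score rule of the methods. Levels are compared between arrays for the same probe set and never between genes.

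**Figure D1:**
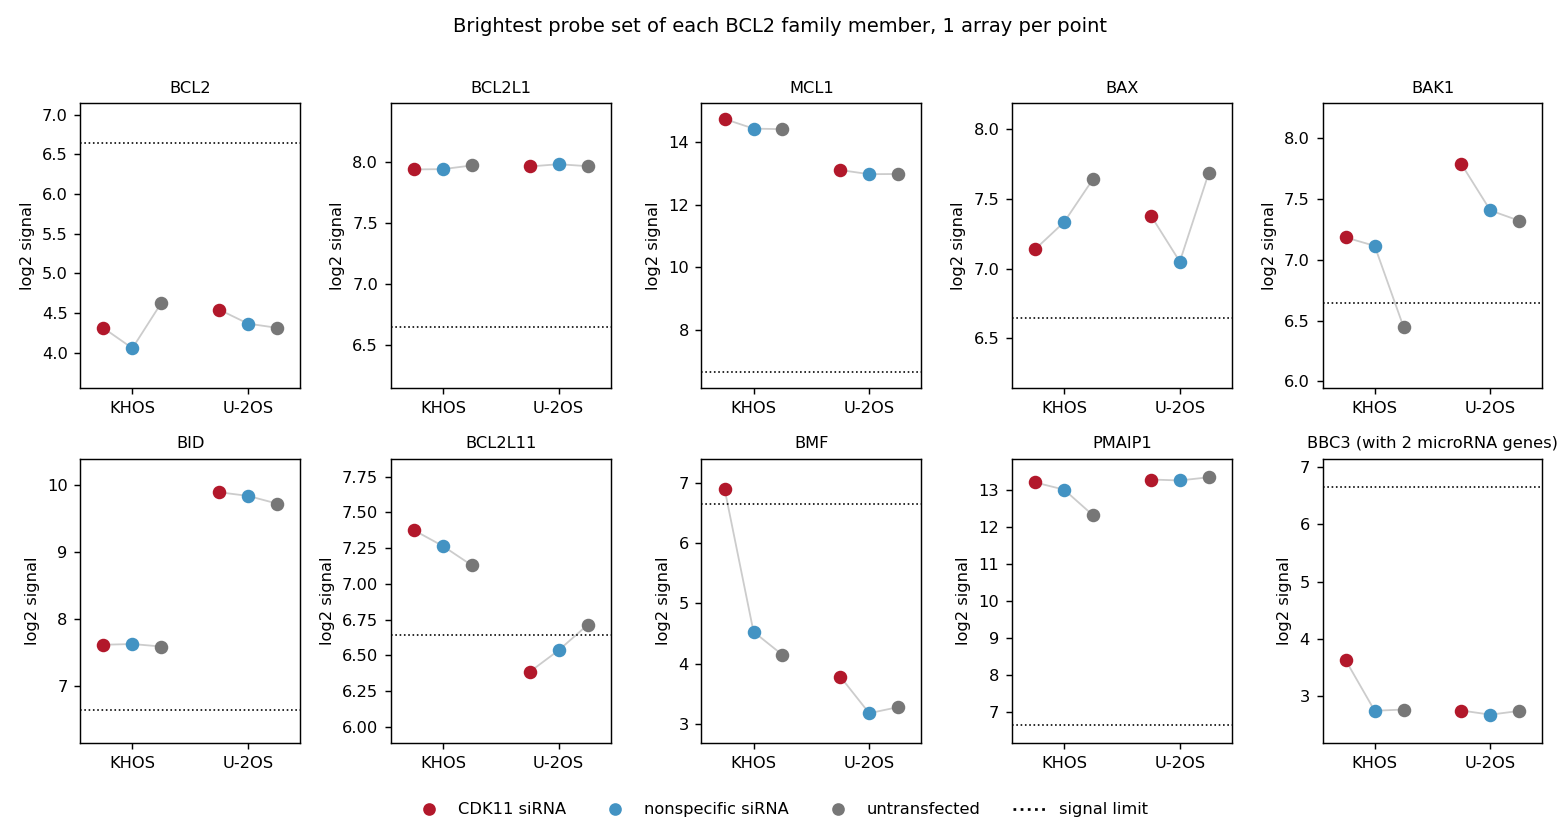
Log2 signal (y axis) of the brightest probe set of each member on the 6 arrays, with 1 point per array, grouped by cell line and coloured by transfection. The dotted line is the signal limit of 6.64, and BMF in KHOS with CDK11 siRNA (6.90) is its only array above the limit.

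BMF encodes a BH3-only protein that is held at myosin V motors through the dynein light chain DYNLL2 and is known for its part in the death of cells that lose their attachment. Its probe set 226530_at had log2 levels of 6.90 with CDK11 siRNA, 4.53 with nonspecific siRNA and 4.14 untransfected in KHOS. In U-2OS the levels were 3.78, 3.18 and 3.28. The CDK11 siRNA array was the highest of its 3 in each line, and the controls of a line lay closer to each other than to it. Between CDK11 and nonspecific siRNA the KHOS cells differed by 2.37 on the log2 scale, a 5.18-fold higher signal with a z-score of 5.28. In U-2OS it was 0.61, a 1.52-fold higher signal with a z-score of 1.60, between levels that were all below the signal limit. Against untransfected cells the differences were 2.76 and 0.51. The single BMF probe set leaves no second measurement of the gene on the array.

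In KHOS, BMF was the only one of the 8 measured members beyond 3 SD between CDK11 and nonspecific siRNA, where 1.95% of all 8878 genes were. In U-2OS none of the 8 was, against 2.89% of genes. BMF passed the filter only through the KHOS CDK11 siRNA array, the one that is high, so nothing is read from its place in this count. With the lines taken as replicates and cell line as a block, limma passed 0 of 8 members and 0 of 8878 genes (0%) at an adjusted p of 0.05. Before adjustment 1205 of 8878 genes and 1 of 8 members, BMF, had a p under 0.05. As BMF was chosen for its high value, its p is not given as support. BMF had a mean difference of 1.49 with a standard error of 0.55 and an adjusted p of 0.355 in limma, higher in both lines. When the variance prior was allowed to depend on signal, limma passed 119 genes and again 0 members. The fit has 2 residual degrees of freedom, and the unequal BMF differences of the lines enter its error.

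**Figure D2:**
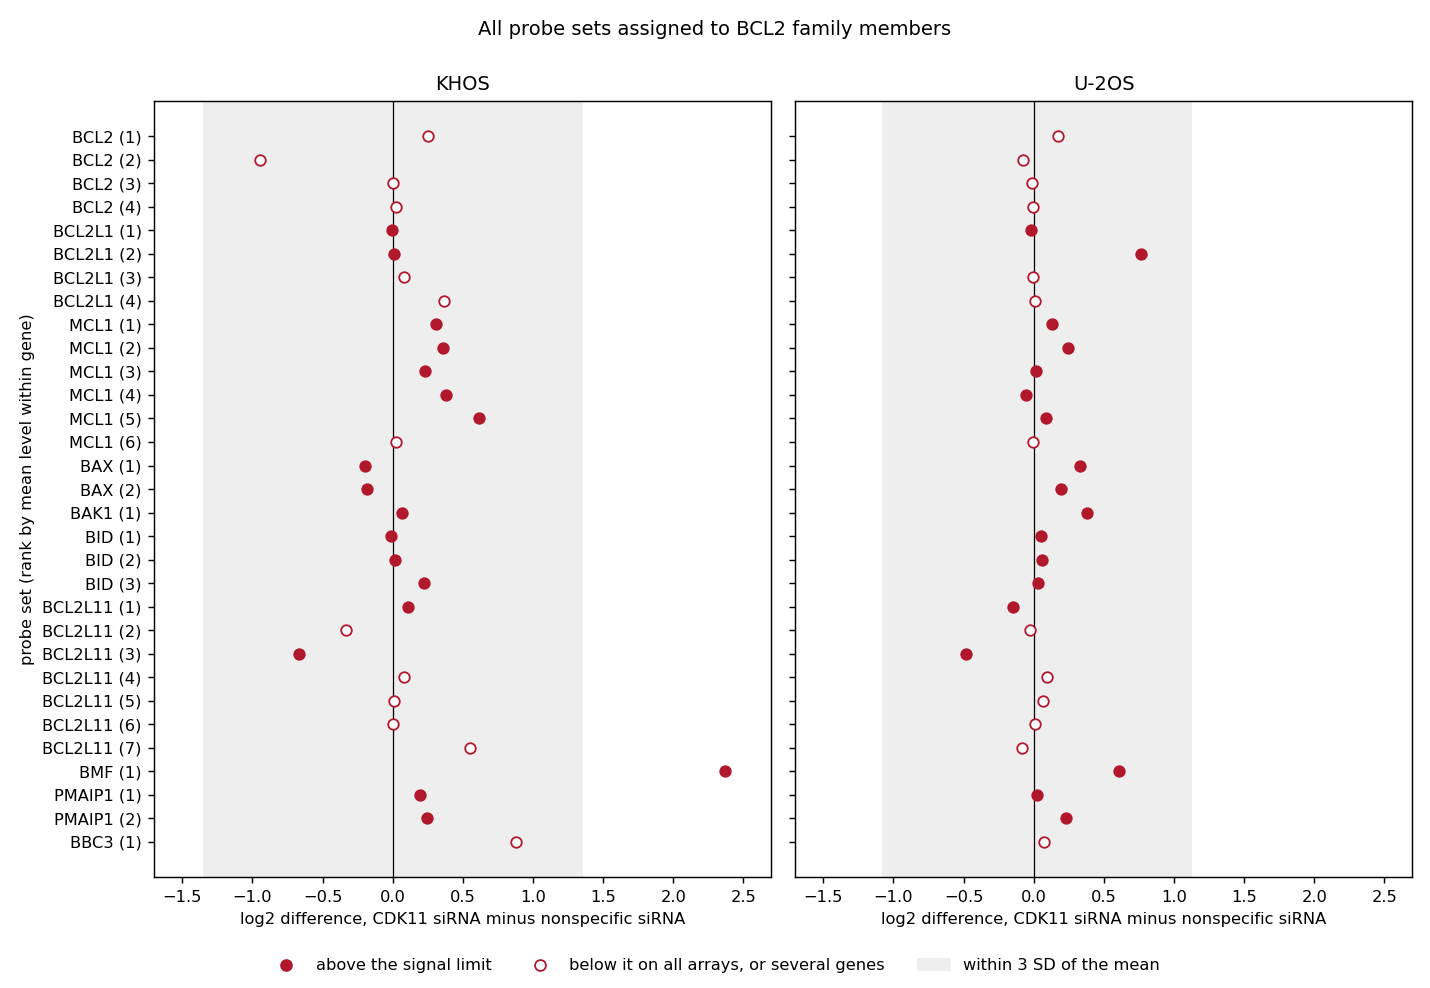
Log2 difference of CDK11 siRNA minus nonspecific siRNA (x axis) for all 31 probe sets, in KHOS (left) and U-2OS (right), with the rank of the probe set within its gene in parentheses. BMF in KHOS (2.37) is the single point outside the grey band of 3 SD.

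Apart from BMF, the 17 probe sets above the limit ran between -0.67 and 0.61 in KHOS, inside the 3 SD bounds of -1.35 and 1.35. For U-2OS they ran between -0.48 and 0.77, inside bounds of -1.07 and 1.12. Over the brightest probe sets of the 8 members the median was 0.09 for KHOS and 0.09 for U-2OS, beside 0.0024 and 0.0087 over all genes. Of the 18 probe sets, 11 were higher and 2 lower with CDK11 siRNA in both lines, and 5 differed in sign between the lines. These 18 include 5 of MCL1 as well as BMF, and the share over all probe sets was not taken, so nothing is read from the count. By brightest probe set, 5 members were higher and 3 lower in KHOS, and 6 were higher and 2 lower in U-2OS.

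Among the pro-survival genes, MCL1 encodes a short-lived protein that holds BAK and binds BIM, NOXA and PUMA. Its brightest probe set, 200797_s_at, had log2 levels of 14.75 with CDK11 siRNA, 14.44 with nonspecific siRNA and 14.42 untransfected in KHOS. In U-2OS they were 13.11, 12.98 and 12.99. CDK11 siRNA was highest in each line, by 0.31 and 0.13 against nonspecific siRNA. All 5 MCL1 probe sets above the limit were higher with CDK11 siRNA in KHOS, by 0.23 to 0.61. In U-2OS 4 of the 5 were higher, and the range was from -0.06 to 0.24. None of these differences was beyond 3 SD.

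BCL2L1 gives rise to the long pro-survival BCL-XL and a short isoform of opposite function. Its brightest probe set, 212312_at, had levels of 7.94, 7.94 and 7.97 in KHOS with CDK11 siRNA, with nonspecific siRNA and untransfected, and of 7.96, 7.98 and 7.97 in U-2OS. These levels spanned 0.03 in KHOS and 0.02 in U-2OS. The second probe set, 231228_at, had 5.99, 5.98 and 5.46 in KHOS, in the same order of arrays. In U-2OS it had 6.98, 6.21 and 6.59, a difference of 0.77 from nonspecific siRNA with a z-score of 2.04. Probe set 231228_at was above the signal limit on the U-2OS CDK11 siRNA array alone. The 2 probe sets therefore differed in U-2OS, and the array does not say which transcripts each of them reads.

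The effectors were measured by 3 probe sets. BAX, whose product inserts into the outer membrane, had levels of 7.14 with CDK11 siRNA, 7.33 with nonspecific siRNA and 7.64 untransfected in KHOS by probe set 211833_s_at. In U-2OS the levels were 7.38, 7.05 and 7.68. Untransfected cells had the highest BAX signal in each line, also by the second probe set, 208478_s_at. The sign of the BAX difference between CDK11 and nonspecific siRNA differed between the lines, being -0.19 and -0.18 for KHOS but 0.33 and 0.20 for U-2OS. BAK1, whose product resides in the outer membrane, had 7.18, 7.11 and 6.45 in KHOS by its single probe set. For U-2OS it read 7.79, 7.41 and 7.32. BAK1 was highest with CDK11 siRNA and lowest in untransfected cells in both lines, by 0.74 and 0.47 between these arrays.

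Among the other BH3-only genes, BID encodes a protein that caspase-8 cleaves and so links death receptors to the mitochondrion. Its brightest probe set, 211725_s_at, had levels of 7.62, 7.63 and 7.59 in KHOS and of 9.90, 9.84 and 9.73 in U-2OS. The differences of CDK11 and nonspecific siRNA over the 3 BID probe sets spanned -0.01 to 0.22 for KHOS and 0.03 to 0.06 for U-2OS. PMAIP1 encodes NOXA, which binds MCL1 and promotes its degradation. Probe set 204285_s_at of PMAIP1 had 13.21, 13.02 and 12.32 in KHOS, where both siRNA arrays were above the untransfected array. In U-2OS it had 13.29, 13.27 and 13.35, a span of 0.09. The second PMAIP1 probe set was higher with CDK11 than with nonspecific siRNA by 0.24 for KHOS and 0.23 for U-2OS.

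BCL2L11 encodes BIM, whose isoforms bind all pro-survival proteins. Of its 7 probe sets 2 were above the signal limit, and they differed in direction in KHOS. Probe set 1553096_s_at had 7.37 with CDK11 siRNA, 7.26 with nonspecific siRNA and 7.13 untransfected in KHOS, and 6.38, 6.53 and 6.71 in U-2OS. Probe set 225606_at read 6.74, 7.41 and 6.45 on the KHOS arrays, against 4.01, 4.49 and 4.91 on those of U-2OS. By the second, CDK11 siRNA was below nonspecific siRNA in both lines, with differences of -0.67 and -0.48 and z-scores of -1.49 and -1.37. The probe set shared with BBC3 had 3.63, 2.75 and 2.77 in KHOS, a difference of 0.88 from nonspecific siRNA, but all of its levels were below the signal limit.

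The arrays of nonspecific siRNA and untransfected cells show what transfection alone went with. In this contrast 0 of the 8 members were beyond 3 SD in KHOS, where 2.06% of genes were. In U-2OS MCL1 was, where 2.51% of genes were, by probe set 214057_at alone. That probe set had levels of 5.76 with nonspecific siRNA and 4.54 untransfected, a difference of 1.21 with a z-score of 3.12, and 5.70 with CDK11 siRNA. All 3 values are below the signal limit, and the probe set was kept only through KHOS. The 4 other MCL1 probe sets differed by -0.46 to 0.06, and the brightest by -0.01. In KHOS the largest difference with nonspecific siRNA was that of BCL2L11 by probe set 225606_at, 0.96 with a z-score of 2.57, while in U-2OS the same probe set had -0.42. Limma passed 0 of 8878 genes (0%) and 0 members, with 751 genes and 1 member, BAX, at an unadjusted p under 0.05. BAX was lower with nonspecific siRNA than in untransfected cells by both probe sets in both lines, with differences of -0.31 and -0.29 in KHOS and of -0.63 and -0.84 in U-2OS. Limma gave BAX an adjusted p of 0.584. The signal-dependent prior passed 5 genes and 0 members.

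Between CDK11 siRNA and untransfected cells, BMF was the 1 member beyond 3 SD in KHOS, where 2.23% of genes were, and 0 members were in U-2OS, where 2.52% were. Limma passed 0 of 8878 genes (0%) and 0 members here. Before adjustment 1625 of 8878 genes and 2 of 8 members, BAK1 and BMF, had a p under 0.05, and that of BMF is again not given as support. BAK1 had a mean difference of 0.60 with an adjusted p of 0.203 in limma, and BMF had 1.63 with 0.241. The signal-dependent prior passed 279 genes and 0 members. The comparisons with nonspecific siRNA and with untransfected cells share the CDK11 siRNA arrays and are not separate evidence.

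KHOS and U-2OS differed in several members whatever the transfection. In limma with transfection as a block, 5 of the 8 members passed at an adjusted p of 0.05, which is 62.5% where 71.7% of all genes passed, so that the count is no higher than that of genes in general. The 5 include BMF, which was kept only through 1 KHOS array, and its p is not given as support. The 3 arrays of a line are cells of one line under different transfections. With transfection as a block, the p-values measure how the difference between the lines varies over the transfections. The arrays of the lines did not overlap for 6 of the 8 members by their brightest probe set, where 73.9% of genes did not. The median of the probe sets above the limit was 0.15 higher on the KHOS arrays than on the U-2OS arrays. After shifting the arrays to a common median these 5 members passed in the same direction, and PMAIP1 passed as well, by its brightest probe set. Over all genes the shift moved the share of passing genes that were higher in KHOS to 46.2%, from 53.5% as deposited.

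MCL1 was higher in KHOS, with means of 14.54 ± 0.18 in KHOS and 13.03 ± 0.07 in U-2OS (SD over 3 transfections) by the brightest probe set. The difference was 1.51, a 2.85-fold higher signal, with an adjusted p of 0.000239 in limma. The 4 further MCL1 probe sets above the limit were also higher in KHOS on every pair of arrays, by means of 0.97 to 2.45. Of these, 214057_at and 200796_s_at were kept only through KHOS arrays, so that their direction was set by the filter. BID was lower in KHOS, with 7.61 ± 0.02 in KHOS and 9.82 ± 0.09 in U-2OS, and the difference of -2.21 had an adjusted p of 7.0e-05 in limma. By the 2 other BID probe sets the difference was smaller, at -0.60 and -0.88, with adjusted p-values of 0.00607 and 0.00124 when limma was fitted to each probe set. The direction was thus shared by the 3 probe sets of BID and the size was not.

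BCL2L11 was higher in KHOS by its brightest probe set, with a difference of 0.71 and an adjusted p of 0.00816 in limma. Its probe set 225606_at had a difference of 2.39, but it was kept only through KHOS arrays and all its U-2OS values were below the limit, so that no test is given. The BMF values had a mean difference of 1.78, but only the KHOS CDK11 siRNA array lay above the signal limit, and with no filter the adjusted p in limma was 0.103. Under each transfection the BMF difference between KHOS and U-2OS was 3.12 with CDK11 siRNA, 1.35 with nonspecific siRNA and 0.87 untransfected. Without that array all BMF values lay below the limit. BAK1 was lower in KHOS, with 6.91 ± 0.41 in KHOS and 7.50 ± 0.25 in U-2OS, and an adjusted p of 0.016 in limma that was 0.0687 without either CDK11 siRNA array. BAX and BCL2L1 had differences of -0.00044 and -0.02 by their brightest probe sets. The second BCL2L1 probe set had a difference of -0.78, but it was above the limit on the U-2OS CDK11 siRNA array alone, and no test is given.

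**Figure D3:**
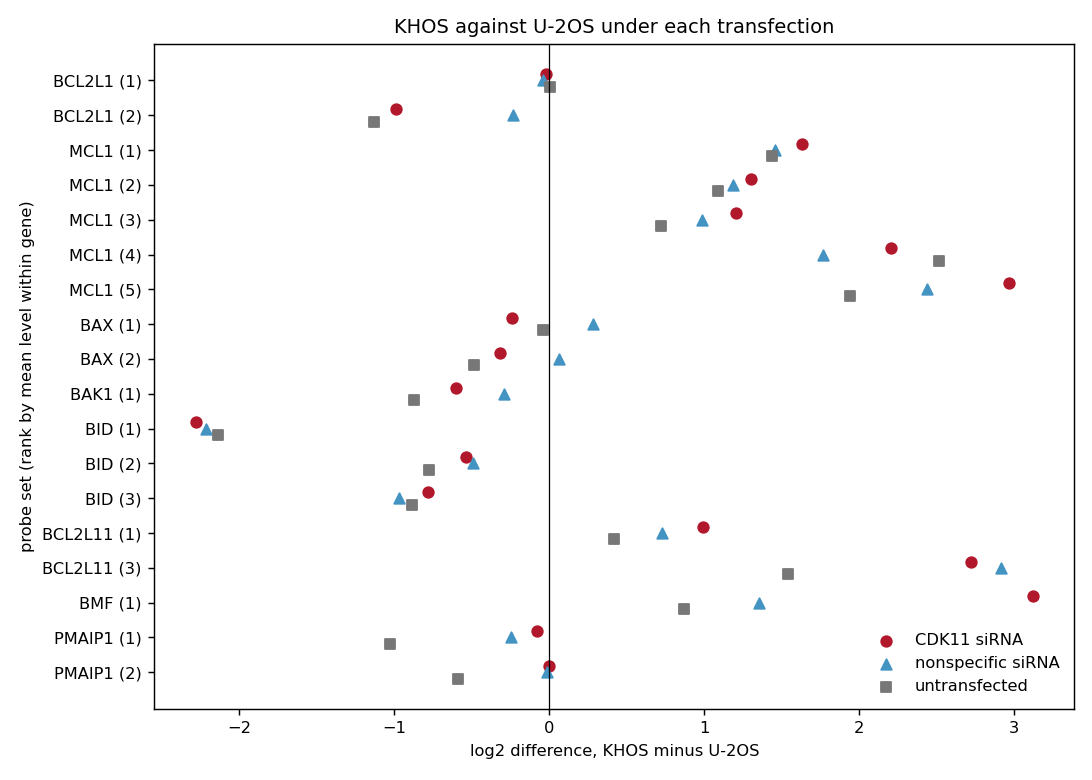
Log2 difference of KHOS minus U-2OS (x axis) under each transfection for the 18 probe sets above the signal limit, with the rank within the gene in parentheses. The MCL1, BCL2L11 and BMF probe sets lie right of 0 under all 3 transfections. Those of BID, BAK1 and PMAIP1 and the second of BCL2L1 lie left of it. BMF, MCL1 (4), MCL1 (5), BCL2L11 (3) and BCL2L1 (2) were kept only through arrays of 1 line, so that their direction was set by the filter.

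The PMAIP1 levels of the lines were furthest apart in untransfected cells. Its levels by the brightest probe set were 13.21 in KHOS and 13.29 in U-2OS with CDK11 siRNA, 13.02 and 13.27 with nonspecific siRNA, and 12.32 and 13.35 untransfected. The difference between KHOS and U-2OS was -1.03 in untransfected cells and -0.08 with CDK11 siRNA, and whether transfection acted differently in the lines could not be tested with 1 array per condition. The mean difference of -0.45 had an adjusted p of 0.110 in limma. By the second probe set, 204286_s_at, KHOS minus U-2OS was -0.59 in untransfected cells and -0.0039 with CDK11 siRNA. Its arrays overlapped between the lines, and its mean difference of -0.20 had an adjusted p of 0.288 when limma was fitted to each probe set.

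Genes around the family were read from 5 lists, of which 47 genes had a probe set above the limit. Between CDK11 and nonspecific siRNA, 0 of the 47 were beyond 3 SD in KHOS and 1 was in U-2OS, and their median differences were 0.05 and 0.01. Of the further family members, 8 of 13 were above the limit. BCL2L2, which encodes the pro-survival BCL-W, had 7.28 with CDK11 siRNA and 8.49 with nonspecific siRNA in KHOS, and 9.33 and 9.56 in U-2OS. BOK, an effector-like member, had 7.41 and 8.37 in KHOS, but 8.21 and 8.02 in U-2OS, so that its sign differed between the lines.

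Of 14 binding partners and turnover factors, 12 were above the limit. VDAC1, a channel of the outer mitochondrial membrane, had a lower signal under CDK11 siRNA in each line, the differences being -0.98 for KHOS and -0.64 for U-2OS. FBXW7, part of a ubiquitin ligase that marks MCL1 for degradation, had 0.69 and 0.01. DYNLL2, the light chain that holds BMF, had -0.01 and 0.09. Of 15 transcription factors of BH3-only genes 11 were above the limit, and E2F1 (-0.995 in KHOS and -0.51 in U-2OS) and REL (-0.78 and -0.71) had the largest mean differences. FOXO1 and FOXO3, factors of BCL2L11, had 0.62 and 0.44 for KHOS but 0.39 and 0.11 for U-2OS, and were picked after their values were seen.

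Of the 12 genes downstream of the mitochondrion 9 were above the limit. OPA1, which keeps the cristae of the inner membrane in shape, was the 1 gene beyond 3 SD, in U-2OS by 1 of its 3 probe sets, with a difference of -1.62 between levels of 3.35 with CDK11 siRNA and 4.97 with nonspecific siRNA. These values are below the signal limit. Its brightest probe set had -0.34 in U-2OS and -0.18 in KHOS, and the third had 0.80 in U-2OS, the opposite sign. APAF1, which forms the apoptosome with cytochrome c and was picked after its values were seen, had the largest mean difference of the 47 genes by brightest probe set. It was higher with CDK11 siRNA by 0.64 for KHOS and 1.03 for U-2OS, with z-scores of 1.42 and 2.77. Of the death receptor genes that act through BID, 7 of 8 were above the limit, with TNFRSF10B (0.49 for KHOS, 0.35 for U-2OS) and CASP8 (0.45 and 0.22) of the largest mean difference. None of the 47 genes passed limma between CDK11 and nonspecific siRNA.

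The genes whose levels over the 6 arrays were most like those of BMF were CREBRF, TICAM1, SEPTIN7P2, KPNA5 and H2BC9. They were found by Pearson correlation with the BMF probe set over 6 arrays, among 4889 other genes whose levels ranged over at least 1 log2 unit, of which 108 had a correlation above 0.9. The arrays share lines and transfections, and the correlation is a description. BMF was above the signal limit on the KHOS CDK11 siRNA array alone, and no correlation was taken without that array. CREBRF, a regulator of the CREB3 transcription factor, had the highest, 0.998. Its levels were 9.52 with CDK11 siRNA, 7.70 with nonspecific siRNA and 7.26 untransfected in KHOS, and 7.07, 6.54 and 6.48 in U-2OS. The differences of CDK11 and nonspecific siRNA in CREBRF were 1.83 and 0.53, and its levels were above the signal limit on 4 of the 6 arrays. TICAM1, the adaptor of the double-stranded RNA receptor TLR3, had a correlation of 0.988, and the pseudogene SEPTIN7P2 0.987. KPNA5, an importin, and H2BC9, a histone H2B gene whose probe set may also read its near-identical copies, had 0.983 each. These 4 genes had differences of 0.63 to 0.80 in KHOS and of 0.01 to 0.37 in U-2OS.

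**Figure D4:**
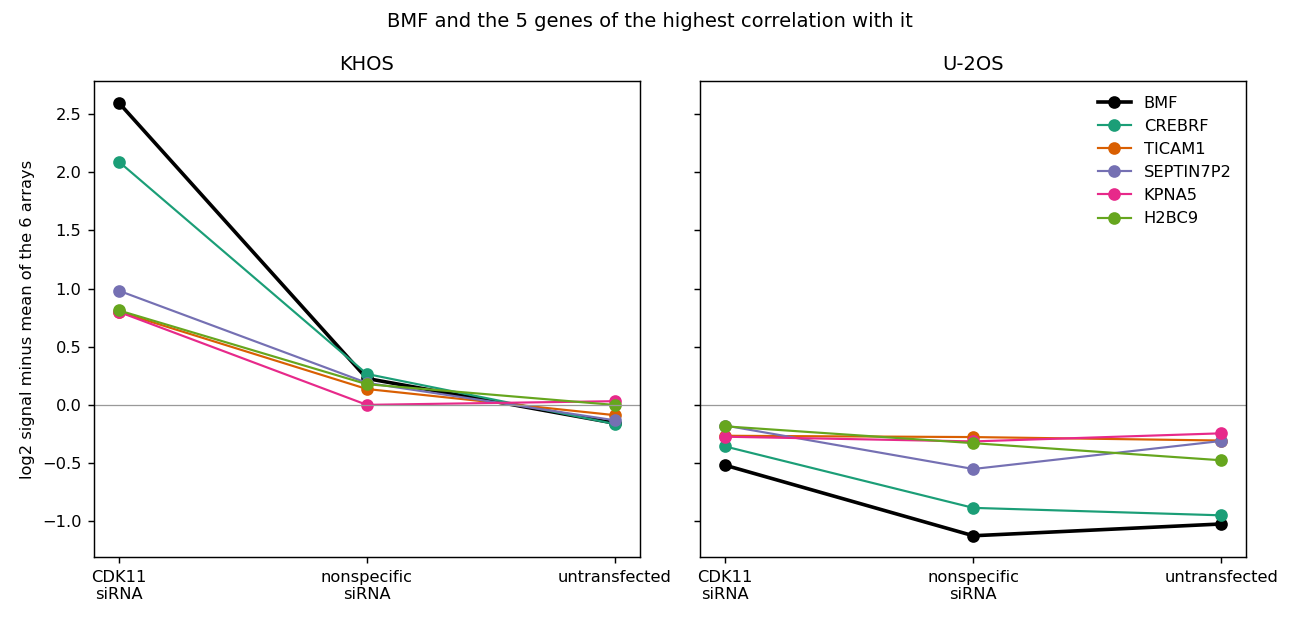
Log2 signal minus the mean of the 6 arrays (y axis) for BMF and the 5 genes of the highest correlation with it, by transfection (x axis) in KHOS (left) and U-2OS (right), with 1 point per array. The KHOS CDK11 siRNA array is the highest for each gene, which goes with their choice by correlation with BMF, highest on that array. CREBRF (0.998) follows BMF most closely.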

How the data were processed

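The authors deposited log2 values of 6 Affymetrix U133 Plus 2.0 arrays, made with gcrma, which adjusts the background, normalizes arrays by quantiles and summarises probe sets. The version of gcrma was not given in the sources used here, and the table holds all probe sets, before the filters of the methods, whose present and absent calls were not used here. Genes were named from the platform annotation, with symbols updated by gene ID (RefSeq, GRCh38.p14; 41043 of 41097 probe sets with 1 symbol matched). No gene was named from the 1801 probe sets with several symbols, apart from CDK11A and CDK11B, and the BBC3 probe set is given as shared. Probe sets with a highest value above 6.64 were kept (16397, 8878 genes). The number of arrays limits the precision.

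Differences were taken within a line and expressed in SD from the mean of all kept probe sets. The limma fit (version 3.58.1, R 4.3.3) used the brightest probe set per gene with cell line and transfection as terms, two-sided, with Benjamini-Hochberg adjustment over 8878 genes. Here the pairing of arrays is by cell line and is part of the fit. Both rules were first run on simulated data in which 200 genes were changed alike in both lines. Changes that are unequal between the lines, like those of BMF, were not simulated, and nothing is read from that run here. The members and lists were chosen with earlier results of these data known. All members were named, with list genes beyond 3 SD or else the 2 of the largest mean difference. Python 3.11.15, pandas 2.3.3, numpy 2.4.6 and matplotlib 3.10.9 were used. Alternatives covered the filter, the z-score, the control, the normalization, the probe set rule, the variance prior, the block and each array left out.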

Additional observations from a re-analysis of the deposited data

Results flagged for a closer look

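BCL2A1, a pro-survival member outside the 10 genes and picked after its values were seen, differed between the lines in the direction of its difference from untransfected cells. With nonspecific siRNA it differed by -2.36 for KHOS and 1.98 for U-2OS. With CDK11 siRNA it differed by -1.97 for KHOS and 1.62 for U-2OS, and both contrasts share the untransfected arrays. Its levels were 5.05 with CDK11 siRNA, 4.66 with nonspecific siRNA and 7.03 untransfected in KHOS, and 9.46, 9.82 and 7.84 in U-2OS, by 1 probe set. It stands here because the direction was opposite in the lines with each difference beyond 1 SD. The z-scores for KHOS and U-2OS were -6.36 and 5.02 with nonspecific siRNA, and -3.67 and 3.87 with CDK11 siRNA. In KHOS the levels with each siRNA lie below the signal limit. Whether transfection acted differently in the lines was not tested, as each condition had 1 array.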

How the results depend on the processing

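The BMF difference in KHOS stayed beyond 3 SD with no filter, with the median and MAD, against untransfected cells and under both renormalizations. All of these use the same KHOS CDK11 siRNA array, and BMF was chosen for its high value there. Its place beyond 3 SD is therefore not given as support. The probe set rules and a threshold of 2 could not change that place. Under the stricter filter, with a highest value above 8, the count was 0, as BMF is then left out. In U-2OS the count was 1 with the median and MAD and 1 with a threshold of 2, each time BCL2L1 by its second probe set, and 0 under the other 7. That probe set was kept only through the U-2OS CDK11 siRNA array, the one that is high. The share over all genes under these rules was not taken, so nothing is read from the count. Members past limma between KHOS and U-2OS numbered 3 of 9 tested with no filter, where 6690 of 19775 genes passed. With the stricter filter they numbered 2 of 3 tested, where 5338 of 7181 genes passed. When an array was left out they numbered 4 to 5 of 8, where 5244 to 6022 of 8878 genes passed. Without transfection as a replicate block they numbered 3 of 8, where 5923 of 8878 genes passed, with an adjusted p of 0.0611 for BAK1 in limma. They numbered 6 of 8 with the mean of probe sets, the signal-dependent prior, the common median or 1 row per probe set. In that order 6445, 6673 and 6411 of 8878 genes passed, and 10435 of 14441 probe sets. By the mean of probe sets the BCL2L1 line difference was -0.40, with an adjusted p of 0.0361 in limma. PMAIP1 passed with that prior (adjusted p of 0.0339 in limma). In U-2OS the mean of BCL2L1 probe sets was 0.37 higher with CDK11 than nonspecific siRNA. The BAX difference of CDK11 siRNA in U-2OS was 0.33 from nonspecific siRNA but -0.30 from untransfected cells. The 3 transfection contrasts passed 0 members under every alternative run, also with cell line left out of the model. When an array was left out, the limma difference of BAX between the lines ran between -0.14 and 0.12, reversing its sign, and that of BMF for nonspecific siRNA against untransfected between -0.54 and 0.83. BMF and BAK1 between the lines no longer passed with no filter (adjusted p of 0.103 and 0.0559 in limma), nor BAK1 without either CDK11 siRNA array (0.0687). BMF between CDK11 and nonspecific siRNA ran between 0.49 and 2.49, lowest without the KHOS CDK11 siRNA array and highest without that of U-2OS, with adjusted p-values of 0.239 to 0.899 in limma. The fit to each probe set was added after the data were seen. All 3 BMF values of U-2OS lie below the signal limit of 6.64, and each condition of a line has 1 array.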
